A study of Mus musculus with 6 samples.

Results

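The genes described here encode the KMT2 family of histone H3 lysine 4 (H3K4) methyltransferases and the proteins that work with them. They were chosen by name: Kmt2a, Kmt2b, Kmt2c, Kmt2d, Kmt2e, Wdr5, Ash2l, Kdm6a, Paxip1 and Men1, 10 of 22180 named genes. Each is represented by the probe set with the highest mean over the 6 arrays among those annotated to that symbol alone, and all 10 lay above the minimum level for testing. The samples were c-Kit+ leukemic cells of the spleen from mice of 2 genotypes, each with 3 independent samples and 1 whole-transcript array per sample. The 3 control samples came from Mx1-Cre, Cbfb+/56M mice, and the other 3 from Chd7f/f, Mx1-Cre, Cbfb+/56M mice, in which Chd7 is floxed on both alleles. Cbfb 56M, the conditional Cbfb-MYH11 allele, models the fusion gene of inv(16) acute myeloid leukemia, and Mx1-Cre is a recombinase under an interferon-inducible promoter. Exposure to pIpC, which induces Mx1-Cre, and to the mutagen ENU was common to both genotypes, so every sample is an ENU-treated leukemia at its end stage, and the genotype labels differ only in the floxed Chd7 alleles. Age and sex are not in the labels used here. The design calls the samples independent without stating that every one is a separate mouse. A p-value here sets a genotype difference against the variation among these samples only.

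Methylation of H3K4 marks active promoters and enhancers. KMT2A and KMT2B write it mainly at promoters and developmental genes and are guided there by menin and by a zinc finger that binds unmethylated CG dinucleotides, while KMT2C and KMT2D place the monomethyl mark at enhancers. All of these enzymes need a shared core that contains WDR5, ASH2L, RBBP5 and DPY30. In blood KMT2A is best known from the translocations of acute leukemia and from its control of HOXA and MEIS1 genes, and KMT2C, KMT2D and KDM6A are recurrently mutated in myeloid and lymphoid cancers. CHD7 is a chromatin remodeller found at enhancers that carry H3K4 methylation, and this gives the comparison its question: whether the genes of the machinery that writes the mark differ between the genotypes.

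The sequences upstream of 5 members are shown as examples of the groups described below. They are a pair of KMT2 genes, a core subunit gene and Men1, which deviated the other way on some arrays, and the X-linked Kdm6a. Each is the 250 bases before the RefSeq start, 5′ to 3′, with CG dinucleotides in capitals.
Kmt2a promoter (GRCm38.p6, chr9:44881290-44881539, minus strand): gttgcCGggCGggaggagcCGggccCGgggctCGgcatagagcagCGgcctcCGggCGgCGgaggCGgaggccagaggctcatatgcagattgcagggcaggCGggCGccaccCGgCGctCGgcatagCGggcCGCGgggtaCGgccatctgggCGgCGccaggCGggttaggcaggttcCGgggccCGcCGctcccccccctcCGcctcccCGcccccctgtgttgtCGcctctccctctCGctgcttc
Kmt2c promoter (GRCm38.p6, chr5:25498784-25499033, minus strand): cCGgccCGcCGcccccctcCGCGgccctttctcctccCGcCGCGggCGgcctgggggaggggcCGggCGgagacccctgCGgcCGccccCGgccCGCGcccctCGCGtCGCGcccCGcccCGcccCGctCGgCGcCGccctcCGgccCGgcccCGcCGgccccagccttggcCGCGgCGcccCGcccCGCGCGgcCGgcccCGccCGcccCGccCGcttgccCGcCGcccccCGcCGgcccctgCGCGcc
Wdr5 promoter (GRCm38.p6, chr2:27514897-27515146, plus strand): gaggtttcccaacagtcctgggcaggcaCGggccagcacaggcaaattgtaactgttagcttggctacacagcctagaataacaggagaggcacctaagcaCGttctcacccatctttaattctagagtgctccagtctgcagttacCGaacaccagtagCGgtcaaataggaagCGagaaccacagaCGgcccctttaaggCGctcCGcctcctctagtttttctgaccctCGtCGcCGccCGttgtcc
Men1 promoter (GRCm38.p6, chr19:6334729-6334978, plus strand): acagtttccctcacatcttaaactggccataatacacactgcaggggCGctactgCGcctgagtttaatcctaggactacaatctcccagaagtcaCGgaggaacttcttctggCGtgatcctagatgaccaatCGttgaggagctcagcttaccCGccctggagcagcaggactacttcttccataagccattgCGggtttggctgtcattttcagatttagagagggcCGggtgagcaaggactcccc
Kdm6a promoter (GRCm38.p6, chrX:18162325-18162574, plus strand): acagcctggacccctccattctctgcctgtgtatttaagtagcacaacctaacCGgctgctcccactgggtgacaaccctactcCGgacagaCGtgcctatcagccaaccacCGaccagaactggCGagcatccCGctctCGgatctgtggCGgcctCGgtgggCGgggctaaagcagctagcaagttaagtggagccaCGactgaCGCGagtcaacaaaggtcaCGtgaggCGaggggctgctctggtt

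The RefSeq table held windows for 7 of the 10 members, 9 windows in all because Men1 has 3 starts. The first of the 3 Men1 windows is printed. The Kmt2c window had 48 CG dinucleotides and the Kmt2a window 29, against a median of 6 over all 32851 windows of that length. Kmt2d followed with 26 and Paxip1 with 22. Wdr5 had 12, Kdm6a 15 and the Men1 windows between 8 and 10. The letters GGGCGG, a GC box, occurred on either strand in all 9 member windows and in 32.7% of all windows. CCGGAAG, an ETS-type motif, occurred in 0 member windows and in 6.91% of all windows, and CCAAT in 3 member windows and 33.8% of all. Those 3 are the Men1 windows, which overlap one another, so neither this count nor that of GC boxes is of separate sequences. CACGTG, an E-box, occurred in 1 member window, that of Kdm6a, and in 6.02% of all. GC boxes and CG dinucleotides share letters, so these counts are not separate measures, and a match is a description of the letters only.

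The arrays give 1 RMA level per probe set on the log2 scale, where a difference of 1 is a doubling of signal, and their number limits the precision. Levels of different probe sets are not set against each other. Array medians lay between 4.72 and 4.84. Kit, the gene behind the sort, was between 11.68 and 12.48 on every array, while the T cell genes Cd3d, Cd3e and Cd8a were at 5.46 or below and the B cell gene Cd79a reached 7.18 in control replicate 2 but no more than 5.26 elsewhere. The other measured B cell markers were at 5.15 or below on every array. The mast cell and basophil gene Fcer1a was between 10.75 and 12.29 and the erythroid gene Car1 between 11.09 and 12.21 on the same arrays. Of the other mast cell and basophil genes, Cpa3 was between 12.92 and 13.09, Ms4a2 between 11.05 and 12.17 and Hdc between 9.86 and 12.27. Mcpt8 was at 5.05 or below and Prss34 at 4.60 or below. Of the other measured erythroid genes, Car2 was between 12.19 and 12.78 and Ermap between 10.82 and 11.80. Klf1 was between 9.32 and 10.47 and Epor between 7.67 and 8.99, while Slc4a1 ran from 5.92 to 11.47. Chd7 itself was at 6.17, 7.54 and 5.32 in the controls and at 5.48, 6.50 and 5.91 in Chd7f/f leukemias, a difference of -0.38 (SE 0.58, limma adjusted p = 0.9998). Where its probes lie relative to the deleted part is not stated, and the level is no check of the deletion. Control replicate 2 had Xist at 10.08 and the Y-linked Eif2s3y at 4.43, against 3.30 to 3.88 and 8.72 to 9.11 on the other 5 arrays. It is the array with a female pattern, and values without it are given where it bears on a member.

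None of these 10 genes passed the test between Chd7f/f and control leukemias, and their values overlapped between the genotypes. The differences, Chd7f/f minus control throughout, ran from -0.19 for Paxip1 to 0.15 for Men1, with 5 genes above 0 and 5 below. Among all 15526 tested genes 43.7% were above 0 and 56.3% below. The median difference of the members was -0.0094 and that of all tested genes -0.027. The median size of a difference, sign aside, was 0.0685 for the members and 0.118 for all tested genes.

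0 of 10 members passed the test (limma with Benjamini-Hochberg adjustment over all tested genes, adjusted p = 0.9998 for each), and the background was the same: 0% of genes passed an adjusted p of 0.05. At an unadjusted p under 0.05 the count was 0 of 10 members against 1.84% of tested genes, and the members' unadjusted limma p ran from 0.299 to 0.909. The values of both genotypes overlapped for each of the 10 members, where 6.81% of tested genes had no overlap. With 3 arrays a genotype the smallest two-sided p of an exact permutation test is 0.1, and for the members that test gave 0.2 for Kmt2a and between 0.5 and 1 for the others. A p that misses the threshold does not show equal levels, and the intervals state what remains possible. The widest 95% interval was that of Men1, and it reached 0.81, a fold of 1.76.

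**Figure D1:**
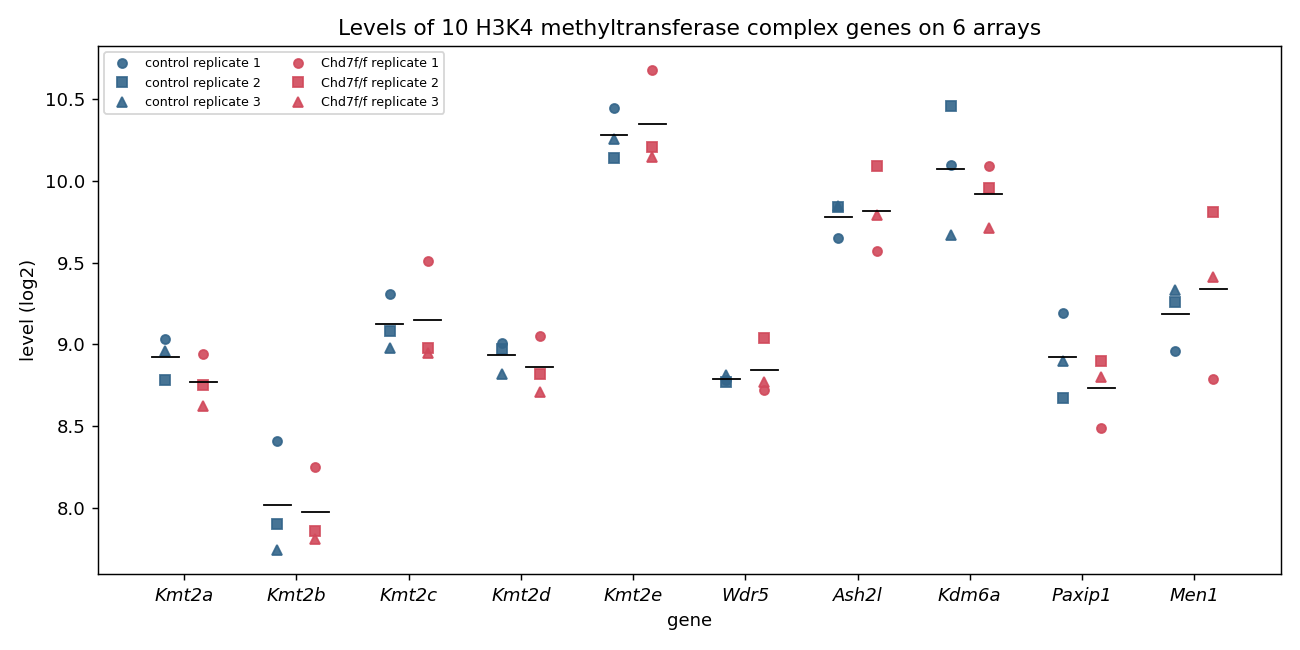
Levels on the log2 scale (vertical axis) of the 10 genes (horizontal axis), with 1 symbol per array, blue for the 3 control and red for the 3 Chd7f/f leukemias, and a black bar at each mean. The red and blue symbols overlap for every gene, and heights of different genes are not comparable.

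Kmt2a encodes the methyltransferase also called MLL1. It was at 9.03, 8.78 and 8.96 in control replicates 1 to 3 and at 8.94, 8.75 and 8.62 in Chd7f/f replicates 1 to 3. The lowest value was a Chd7f/f array and the highest a control array, with the remaining values interleaved. Means were 8.93 ± 0.128 and 8.77 ± 0.162 (SD, n = 3 each), a difference of -0.16 (SE 0.14, 95% interval -0.49 to 0.18). Kmt2a had the smallest unadjusted limma p of the members, 0.299. Genotype accounted for 29.8% of its variance over the arrays, the largest share among the members, whose median was 6.4%; the median over all tested genes was 10.1%.

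Kmt2b, the closest relative of Kmt2a, was at 8.41, 7.90 and 7.74 in the controls and at 8.25, 7.86 and 7.81 in Chd7f/f leukemias. Replicate 1 of either genotype was high and the other 4 arrays were close together. The difference was -0.042 (SE 0.22, 95% interval -0.58 to 0.49), or 0.16 without control replicate 1.

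Kmt2c, the enhancer methyltransferase also called MLL3, was at 9.31, 9.08 and 8.98 in the controls and at 9.51, 8.98 and 8.95 in Chd7f/f leukemias. Chd7f/f replicate 1 was the highest array and Chd7f/f replicate 3 the lowest, so that the spread within Chd7f/f spanned the control values. The difference was 0.023 (SE 0.19, 95% interval -0.44 to 0.49), and -0.16 without Chd7f/f replicate 1. Its partner in enhancer methylation, Kmt2d or MLL4, was at 9.01, 8.97 and 8.82 in the controls and at 9.05, 8.82 and 8.71 in Chd7f/f leukemias. The same arrays were highest and lowest as for Kmt2c. The difference was -0.071 (SE 0.14), and its 95% interval, from -0.40 to 0.26, corresponds to folds between 0.76 and 1.20.

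Kmt2e, also called MLL5, belongs to the family by its PHD finger and SET domain, but the protein is not known to methylate H3K4 and acts as a reader of the mark. It was at 10.45, 10.14 and 10.26 in the controls and at 10.68, 10.21 and 10.15 in Chd7f/f leukemias. Chd7f/f replicate 1 was again the highest array. The difference was 0.066 (SE 0.18, 95% interval -0.37 to 0.50) and turned to -0.099 without that array.

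Wdr5 encodes the WD40 protein that holds the SET domain of KMT2A in its active complex. It had the narrowest range of the members, at 8.78, 8.77 and 8.81 in the controls and 8.72, 9.04 and 8.77 in Chd7f/f leukemias. Chd7f/f replicate 2 stood above 5 arrays that lay close together. The difference was 0.055 (SE 0.13, 95% interval -0.25 to 0.36), or folds between 0.84 and 1.28. Without Chd7f/f replicate 2 it was -0.042.

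Ash2l, the subunit that with RBBP5 stimulates the catalytic SET domain, was at 9.65, 9.84 and 9.85 in the controls and at 9.57, 10.09 and 9.79 in Chd7f/f leukemias. The highest and the lowest array were both Chd7f/f, the same arrays as for Wdr5. The difference was 0.04 (SE 0.16, 95% interval -0.36 to 0.44), and -0.097 without Chd7f/f replicate 2.

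Men1 encodes menin, which tethers KMT2A and KMT2B to chromatin and is the target of menin inhibitors in leukemia. It had the widest range of the 10 genes, 1.02, while the other 9 had ranges under 1. Control levels were 8.96, 9.26 and 9.33, and Chd7f/f levels were 8.79, 9.81 and 9.41. Chd7f/f replicate 2 was the highest array and Chd7f/f replicate 1 the lowest. The means of 9.18 ± 0.196 and 9.34 ± 0.512 (SD, n = 3 each) differed by 0.15 (SE 0.27, 95% interval -0.51 to 0.81). It rose to 0.43 when Chd7f/f replicate 1 was left out and turned to -0.081 when Chd7f/f replicate 2 was, so the direction rested on a single array.

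Paxip1 encodes PTIP, a BRCT-domain subunit found with KMT2C and KMT2D. It was at 9.19, 8.67 and 8.90 in the controls and at 8.49, 8.90 and 8.80 in Chd7f/f leukemias. Control replicate 1 was the highest array and Chd7f/f replicate 1 the lowest, with the other 4 between them. The difference of -0.19 (SE 0.19, 95% interval -0.64 to 0.26) was the lowest among the members, and it was -0.052 without control replicate 1. A further Paxip1 probe set lay between 3.69 and 4.55, below the array medians, and differed by 0.17. The mean of both probe sets differed by -0.0078.

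Kdm6a, also called UTX, encodes the H3K27 demethylase of the KMT2C and KMT2D complexes. Its gene lies on the X chromosome and is known to escape X inactivation. It was at 10.10, 10.46 and 9.67 in the controls and at 10.09, 9.96 and 9.71 in Chd7f/f leukemias. Control replicate 2, the array with the female pattern, was the highest, and the 5 arrays with the male pattern lay between 9.67 and 10.10. The difference was -0.15 (SE 0.23, 95% interval -0.70 to 0.40), and 0.04 without control replicate 2, that is among arrays of the male pattern alone.

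Kdm5c, an X-linked H3K4 demethylase gene that also escapes inactivation, was highest on the same array, at 9.41 against 8.71 to 9.18 elsewhere. Ddx3x, another X-linked gene of this kind, was at 10.57 there, inside the range of 10.35 to 10.61 on the other arrays. Uty, the Y-linked relative of Kdm6a, was at 4.24 in control replicate 2, where the other arrays had 7.60 to 8.46, and Kdm5d, the Y-linked H3K4 demethylase gene, at 3.70 against 7.12 to 7.42. Uty differed by 1.08 and Kdm5d by 1.12 between the genotypes, with SE of 1.06 and 0.98 (limma, adjusted p = 0.9998 each), and their controls included the array with the female pattern. Whether probes for Kdm6a also bind Uty transcripts was not tested.

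**Figure D2:**
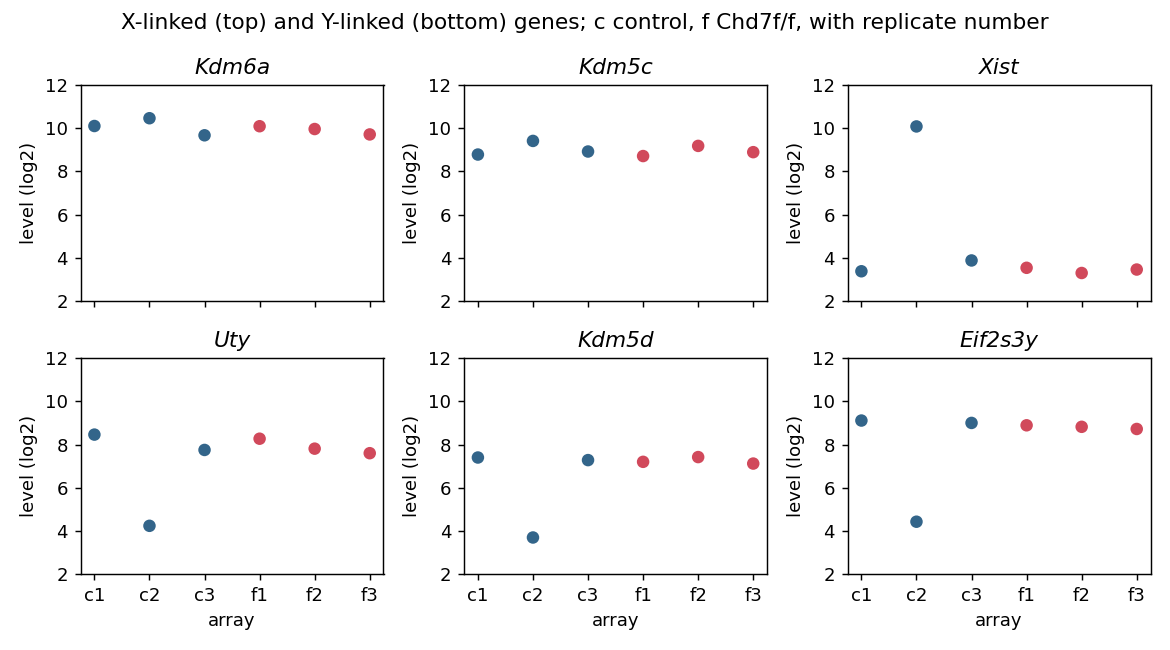
Levels on the log2 scale (vertical axes) of X-linked Kdm6a, Kdm5c and Xist in the upper row and Y-linked Uty, Kdm5d and Eif2s3y in the lower row, with 1 point per array, blue for control (c1 to c3) and red for Chd7f/f (f1 to f3). Control replicate 2 is highest for the X-linked genes, with Xist at 10.08, and lowest for the Y-linked genes, with Uty at 4.24.

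**Figure D3:**
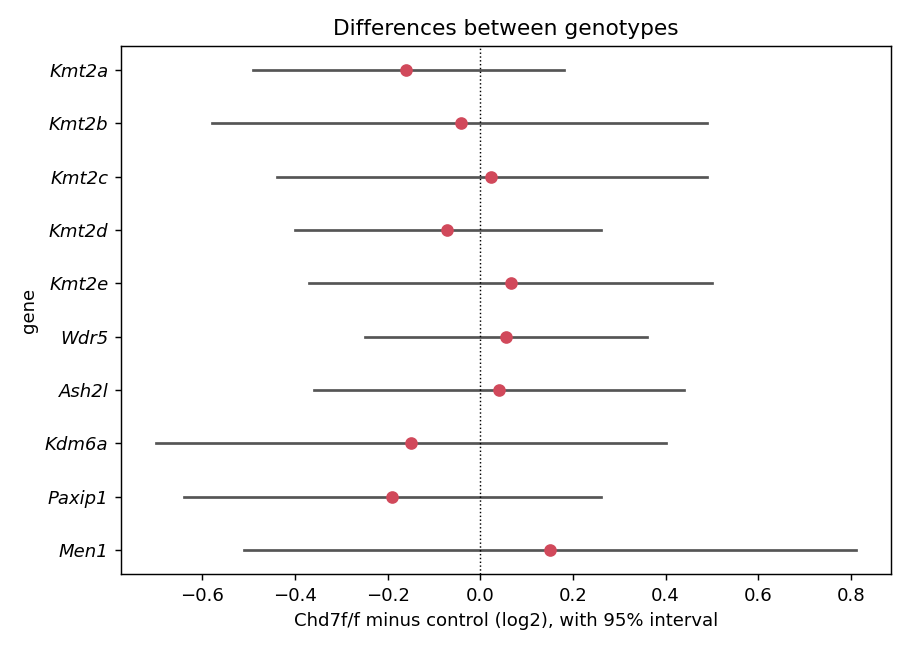
Chd7f/f minus control on the log2 scale (horizontal axis) for each gene (vertical axis); points are differences of means over 3 against 3 arrays and lines are 95% limma intervals. Each interval crosses 0, and the widest, that of Men1, runs from -0.51 to 0.81.

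The members varied between leukemias about as much as other genes did. Their median within-genotype SD was 0.24, from 0.12 for Wdr5 to 0.39 for Men1, and the median of all tested genes was 0.22. Median ranges over the 6 arrays were 0.55 for the members and 0.57 for all tested genes. Wdr5 was at the 16.2 percentile of tested genes by range, Kmt2d at the 19.9 and Men1 at the 78.3.

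Taken as deviations from each gene's own mean over the 6 arrays, the KMT2 family genes lay high or low together from leukemia to leukemia. In replicate 1 of either genotype all 5 were above their means, and in Chd7f/f replicates 2 and 3 all 5 were below. In control replicates 2 and 3 only Kmt2d and only Kmt2a, respectively, were above. Their mean deviation was 0.20, -0.06 and -0.08 in the controls and 0.25, -0.11 and -0.19 in Chd7f/f leukemias. Across all tested genes between 44.1% and 55.7% were above their own means on any 1 array, and Chd7f/f replicate 1 had the lowest share.

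Wdr5, Ash2l and Men1 deviated the other way on some arrays. All 3 were below their means in replicate 1 of either genotype and above them in Chd7f/f replicate 2. Their mean deviation was -0.16, 0.00 and 0.04 in the controls and -0.26, 0.35 and 0.03 in Chd7f/f leukemias. The KMT2 mean minus the mean of these 3 genes was highest in Chd7f/f replicate 1, at 0.51, and in control replicate 1, at 0.37. It was lowest in Chd7f/f replicate 2, at -0.47, and lay at -0.22 in Chd7f/f replicate 3 and at -0.06 and -0.12 in control replicates 2 and 3. The highest and the lowest value thus belonged to the same genotype, and the genotype means were 0.06 for the control and -0.06 for Chd7f/f. Men1 was grouped with the core subunits after its values were seen, so this contrast is a description with no test. The other core subunit genes, Rbbp5 and Dpy30, were not low in control replicate 1. Dpy30 had its highest value there, 8.60, and Rbbp5 was at 8.83, against a control mean of 8.75.

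**Figure D4:**
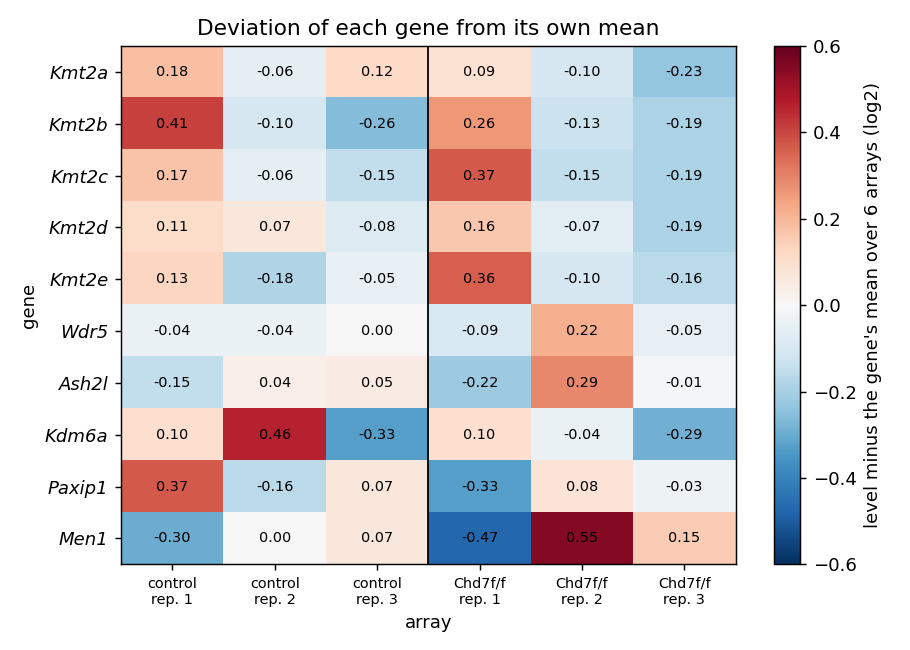
Level minus the gene's own mean over the 6 arrays, on the log2 scale, as colour and number for 10 genes (vertical axis) and 6 arrays (horizontal axis), with a line between genotypes. The 5 KMT2 rows are above 0 in replicate 1 of either genotype, where Wdr5, Ash2l and Men1 are below 0.

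Markers of other cells differed between these arrays too. The 12 measured genes of dividing cells, of 13 listed, had mean deviations between -0.07 and 0.42 in the controls and between -1.61 and 0.49 in Chd7f/f leukemias, with the lowest in Chd7f/f replicate 1. In control replicate 1, where the KMT2 genes were also high, that value was 0.42. Erythroid genes, 6 measured of 12, ran from -0.38 to 0.65 in the controls and from -0.64 to 0.37 in Chd7f/f leukemias. Replicate 1 was highest among the controls and lowest among Chd7f/f leukemias. Slc4a1 had the largest part in the control maximum, with a level of 11.47 on that array where no other array exceeded 9.14. Car2 and Ermap also peaked on it, Car1 was at its lowest, 11.09, and the remaining erythroid genes were at neither extreme. Progenitor genes, 9 of 9 measured, ran from -0.53 to 0.14 in the controls and from -0.34 to 0.62 in Chd7f/f leukemias. Monocyte and macrophage genes, 10 of 10 measured, ran from -0.85 to 0.19 in the controls and from -0.36 to 0.72 in Chd7f/f leukemias. Mast cell and basophil genes, 6 of 6 measured, ran from -0.63 to 0.14 and from 0.06 to 0.24, and neutrophil genes, 8 of 8, from -0.41 to 0.09 and from -0.22 to 0.83. RMA lists no gene at 0. In bulk samples fewer cells of a type and less RNA per cell cannot be told apart, and the part of these markers in the members' values was not tested.

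**Figure D5:**
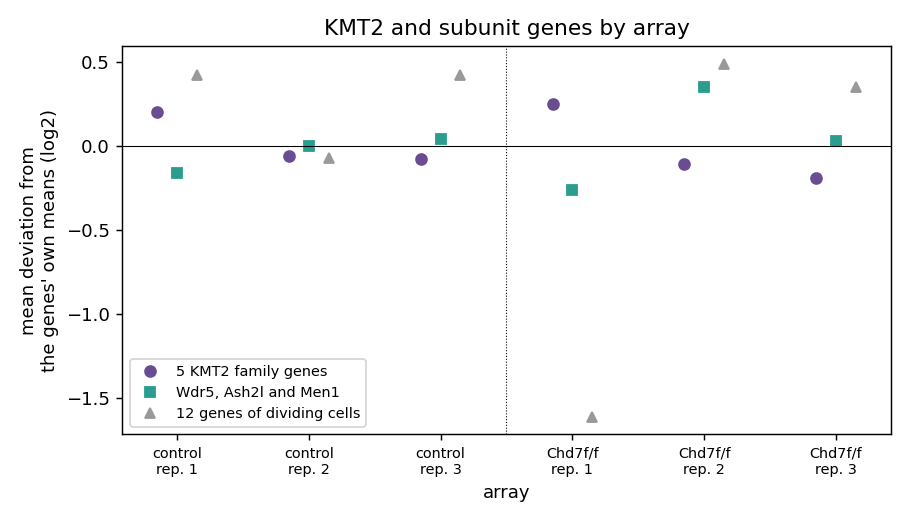
Mean deviation from the genes' own means, on the log2 scale (vertical axis), by array (horizontal axis), for the 5 KMT2 family genes (circles), Wdr5, Ash2l and Men1 (squares) and 12 genes of dividing cells (triangles). Circles and squares are farthest apart in Chd7f/f replicates 1 and 2, in opposite order, and the triangle of Chd7f/f replicate 1 is at -1.61.

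The genes whose pattern over the 6 arrays was most like that of a member were sought for the 3 members of widest range, by Pearson correlation among 13894 tested genes. For Men1 they were Hnrnpl (r = 0.996), Ndufb3 (r = 0.996) and Dnlz (r = 0.993). For Kdm6a they were Gpd1 (r = 0.978), Rtp2 (r = 0.976) and Lrrc4b (r = 0.975), and for Paxip1 Zranb3 (r = 0.997), Usp1 (r = 0.995) and Tnfaip2 (r = 0.995). These are the highest of many values over 6 points that share arrays and normalization, and 147 genes were above 0.95 for Paxip1, 72 for Men1 and 12 for Kdm6a. They are a description only.

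The rest of the H3K4 pathway was read from 11 gene lists holding 96 different genes, of which 94 were measured and 93 tested. Of the 88 tested genes that are no member, 52 were higher and 36 lower, with a median difference of 0.034. 0 passed the adjusted test (limma), 1 had an unadjusted p under 0.05, or 1.14% against 1.84% of all tested genes, and 0 had values that did not overlap between the genotypes, against 6.81%.

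Among the 4 core subunit genes 3 were higher and 1 lower (median 0.043, -0.072 without Chd7f/f replicate 2 and 0.14 when Chd7f/f replicate 1 was left out). Rbbp5, which bridges ASH2L and the catalytic subunit, was at 8.83, 8.57 and 8.87 in the controls and at 8.51, 8.98 and 8.90 in Chd7f/f leukemias. Its lowest and highest arrays were Chd7f/f replicates 1 and 2, as for Wdr5 and Ash2l. Dpy30, which binds ASH2L, was at 8.60, 8.33 and 8.44 against 7.99, 8.39 and 8.40, a difference of -0.19 (SE 0.16). Here too Chd7f/f replicate 1 was the lowest array.

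The SET1 complex genes, which encode the main writers of promoter trimethylation and their partners, had 5 higher and 3 lower of 8 (median 0.036, between 0.023 without control replicate 3 and 0.078 without control replicate 1). Setd1a differed by 0.042 and Setd1b by 0.029. Bod1 was 0.42 (SE 0.26), Bod1l 0.26 (SE 0.19) and Hcfc2 0.13 (SE 0.13) above control. Partners of KMT2A and KMT2B had 6 higher and 3 lower of 9 (median 0.13, or 0.0064 without Chd7f/f replicate 2). The acetyltransferase gene Kat8 differed by 0.26 (SE 0.18) and Kansl2, a gene of the NSL complex with KAT8, by -0.26 (SE 0.20), while the chromatin tether Psip1 was at 0.14. Partners of KMT2C and KMT2D had 1 higher and 3 lower of 4 (median -0.093, or -0.013 without Chd7f/f replicate 3). Ncoa6, the nuclear receptor coactivator of these complexes, differed by 0.02, and Pagr1a, which encodes the partner of PTIP, by -0.034 at levels between 4.20 and 4.62, below the array medians.

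On the opposing side, the H3K4 demethylase and CoREST genes had 5 higher and 4 lower of 9 (median 0.067, -0.016 without Chd7f/f replicate 2 and 0.14 when Chd7f/f replicate 3 was left out). Kdm1a, which encodes LSD1, differed by 0.11 and Kdm5a by -0.015. Kdm5b was at 7.75, 9.80 and 9.94 in the controls and at 10.03, 10.03 and 9.77 in Chd7f/f leukemias. Control replicate 1 stood about 2 log2 units below 5 arrays that lay close together, and the difference of 0.78 (SE 0.58) came with a 95% interval from -0.63 to 2.18. Rcor3, a CoREST gene, differed by 0.26 (SE 0.24). Genes of proteins that read H3K4 methylation had 11 higher and 5 lower of 16 (median 0.056, -0.0066 without control replicate 2 and 0.15 when Chd7f/f replicate 3 was left out). Kdm7a was 0.63 (SE 0.33), Phf13 0.60 (SE 0.27) and Phf8 0.17 (SE 0.13) above control.

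Enhancer coactivator genes had 5 higher and 6 lower of 11 tested (median -0.0027, -0.046 without control replicate 2 and 0.061 when Chd7f/f replicate 3 was left out). Ncoa1, a steroid receptor coactivator gene, was that single gene with an unadjusted p under 0.05 (limma, adjusted p = 0.9998). It was at 6.77, 8.37 and 6.50 in the controls and at 9.22, 8.55 and 8.26 in Chd7f/f leukemias, a difference of 1.46 (SE 0.53). Control replicate 2 lay inside the Chd7f/f range. The Mediator gene Med24 differed the other way, by -0.40 (SE 0.32), and the coactivator gene Ncoa3 by 0.19 (SE 0.24). Fusion partners of KMT2A and super elongation genes had 8 higher and 6 lower of 14 (median 0.015, -0.045 without Chd7f/f replicate 1 and 0.088 when Chd7f/f replicate 3 was left out). Aff4, the scaffold of the super elongation complex, differed by 0.73 (SE 0.32), the elongation factor gene Ell2 by 0.30 (SE 0.17), and Dot1l, the H3K79 methyltransferase gene recruited by KMT2A fusions, by -0.13. Aff3 had 8.54 in control replicate 1 and at most 6.17 on any other array, a difference of -1.09 (SE 1.04). Other methyltransferase genes with reported H3K4 activity had 3 higher and 3 lower of 6 (median -0.025, -0.071 without Chd7f/f replicate 3 and 0.027 without control replicate 1). Setmar differed by -0.21 (SE 0.17), Setd7 by -0.13 (SE 0.15) and Smyd1 by 0.14 (SE 0.14). The H3K27 demethylase genes with Uty had 2 higher and 1 lower of 3 (median 0.34, or 0.04 without control replicate 2). Kdm6b, the autosomal relative of Kdm6a, differed by 0.34 (SE 0.23).

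Genes reported to depend on KMT2A and menin in blood had 7 higher and 5 lower of 12 tested (median 0.076, -0.15 without Chd7f/f replicate 1, and 0.26 when Chd7f/f replicate 2 was left out). Their mean deviation over the 13 measured genes was -0.34, 0.04 and 0.16 in the controls and 0.49, -0.28 and -0.05 in Chd7f/f leukemias. It was thus highest in Chd7f/f replicate 1 and lowest in control replicate 1, the arrays on which the KMT2 genes were both high. Meis1, a homeobox gene of stem and leukemic cells, was at 6.98, 9.13 and 10.24 in the controls and at 9.77, 8.98 and 9.07 in Chd7f/f leukemias. Hoxa9, its partner in leukemia, was highest in Chd7f/f replicate 1, at 6.91, with the remaining arrays from 4.56 to 5.53. Hoxa5 differed by 0.68 (SE 0.55), Cdkn1b, the cell cycle inhibitor p27, by 0.22 (SE 0.23) and Eya1 by -0.15 (SE 0.16). None of these genes passed the adjusted test (limma, adjusted p = 0.9998 for each).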

How the data were processed

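RNA levels of 6 leukemia samples were measured on Affymetrix whole-transcript mouse arrays. The authors deposited a log2 value for each probe set and array. Per the submitters' processing notes these came from Affymetrix Expression Console with RMA, whose versions and options are not stated. RMA equalises array distributions, which hides any difference in total signal. Values of the 41345 probe sets ran from 1.78 to 13.46 and 0 were missing.

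Gene names came from the platform annotation. Of 22180 named genes 21994 were found by Entrez identifier in RefSeq (GRCm38.p6) and took its symbol. A single symbol was given for 23521 probe sets, several for 1814 and none for 16010. The probe set with the highest mean represented each gene, and genes at or above the 30th percentile, 4.13, were tested. The genotype difference was fitted in R 4.3.3 with limma 3.58.1 (lmFit, eBayes, no covariate), adjusting p over 15526 genes by Benjamini-Hochberg; exact permutation tests used SciPy 1.17.1. On simulated data for this comparison with 15526 genes, 95% intervals covered the truth for 95% of unchanged genes. Of genes changed by 1, 2 and 3 log2 units, 29.4%, 83.1% and 93.4% were recovered there. An unadjusted limma p under 0.05 was found for 5.02% of the unchanged genes, and for 1.84% of tested genes on the arrays. In the fit with array weights, these ran from 0.418 for Chd7f/f replicate 1 to 2.585 for Chd7f/f replicate 3. Whether this coverage and recovery hold for the measured arrays was not tested.

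Named genes were the members, Chd7, Xist and Eif2s3y, up to 3 genes of smallest p per H3K4 list, and the 3 genes most correlated with each of the 3 members of widest range, predicted and small RNA genes left out. Kit, Cd3d, Cd3e, Cd8a, Cd79a, Fcer1a, Cpa3, Ms4a2, Hdc, Mcpt8, Prss34, Car1, Car2, Ermap, Klf1, Epor, Slc4a1, Itga2b, Pf4, Ppbp, Kdm5c, Ddx3x, Setd1a, Setd1b, Psip1, Ncoa6, Kdm1a, Kdm5a, Dot1l, Meis1 and Hoxa9 were added after their values were seen. The members and lists were chosen with earlier results of these data known. Lists are described by counts and medians with no test. Replicate numbers were not used to pair the samples in the main fit. Correlations of same-numbered deviations were 0.03, -0.02 and 0.03, which gives no sign of pairing but cannot exclude it. Alternatives were 2 scalings, 2 filters, the mean of probe sets, another prior, array weights, a replicate block and leaving out each array.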

Additional observations from a re-analysis of the deposited data

How the results depend on the processing

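No member passed an adjusted p of 0.05 or an unadjusted p under 0.05 (limma) in any of the 14 alternative fits, 140 values in all, and adjusted p ran from 0.989 to 1. The direction of a difference, each within its own error, turned in 16 of the 140. With array weights Kmt2c was at -0.054 and Kmt2e at -0.04, 3 members were higher in Chd7f/f leukemias instead of 5, and 571 genes had an unadjusted p under 0.05 instead of 286. That count was 530 with no filter and 159 with a filter at the 50th percentile, which test more and fewer genes, and between 270 and 477 without single arrays, the latter without control replicate 2. 0 genes passed an adjusted p of 0.05 in any of these fits, or an adjusted p of 0.1 in the main one. With the replicate number as a block, which the check of pairing did not bear out, 332 genes had an unadjusted p under 0.05, and the members' differences stayed as they were.

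Leaving out each array in turn gave -0.24 to -0.079 for Kmt2a, -0.18 to 0.16 for Kmt2b, -0.16 to 0.12 for Kmt2c, -0.17 to 0.005 for Kmt2d and -0.099 to 0.16 for Kmt2e. It gave -0.042 to 0.12 for Wdr5, -0.097 to 0.16 for Ash2l, -0.36 to 0.04 for Kdm6a, -0.31 to -0.052 for Paxip1 and -0.081 to 0.43 for Men1. The median of the members ran from -0.13 to 0.048 and the number of members higher from 3 to 7. The direction turned for 8 of the 10 members; Kmt2a and Paxip1 kept theirs. The cause of these changes, those with the filters included, was not tested. No detection calls were used, and probe sets with low levels may not exceed background.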

Other observations

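Control replicate 1 stood apart in several genes outside the KMT2 machinery. The mast cell and basophil genes Fcer1a and Hdc were at 10.75 and 9.86 there, against 12.06 to 12.29 and 11.25 to 12.27 on the other arrays. Ms4a2 was also lowest there, at 11.05 against 11.94 to 12.17. The rest of that list did not follow. Cpa3 was at 13.01 against 12.92 to 13.09, Mcpt8 at 4.52 against 3.90 to 5.05 and Prss34 at 3.76 against 3.70 to 4.60. The platelet glycoprotein gene Gp9 was at 10.81 there and between 6.41 and 7.71 elsewhere. The other measured platelet markers did not follow it. Itga2b was lowest there, at 9.05 against 9.32 to 10.34, and Pf4 and Ppbp were at 3.94 and 3.83. Pbx3, a homeobox cofactor gene, was at 5.87 against 7.07 to 7.72. These values were picked after they were seen and are given as measurements only.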
